A study of Homo sapiens with 12 samples.

Results

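The 59 cell cycle and DNA replication genes described here were taken by symbol from a named list, S phase genes apart from mitotic genes, with no threshold on their values, out of 58721 genes counted in each library. They fall into 27 S phase members, which license and fire replication origins, run the replication fork, supply nucleotides or control entry into S phase, and 32 mitotic members, which drive entry into mitosis, build and check the spindle, separate the chromosomes or divide the cell. All 59 were found and passed the filter on low counts in every comparison. They were measured in HepG2, a human hepatocellular carcinoma cell line that grows continuously in culture, collected 2 days after they received an siRNA that was either a control (siControl) or directed at *IGF2BP3* (siIGF2BP3), the gene of a cytoplasmic protein that binds mRNA. From each condition there were 3 libraries of RNA (Input) and 3 libraries of ribosome-protected fragments (RPF), the stretches of mRNA that a ribosome shields from RNase I, taken after 4 min of cycloheximide at 100 µg/mL to halt elongation in both conditions alike. The question of the design was whether loss of IGF2BP3 changes the abundance of transcripts or the ribosomes on them. All 12 libraries come from this 1 line, and the labels do not say whether the 3 libraries of a group came from separate cultures, so p-values measure the spread between these libraries, which may be technical.

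As background, a cell passes a round of division in a fixed order, and the genes it needs are switched on in waves. Before S phase the MCM proteins are loaded onto origins as the core of the replicative helicase with the help of CDC6 and CDT1, and cyclin E with CDK2 then fires them. E2F transcription factors turn on most of these genes. In G2 and mitosis cyclin B with CDK1, the Aurora and Polo-like kinases and the spindle checkpoint act, and their genes are turned on by the MYB-MuvB and FOXM1 complex through a promoter element called the CHR, often near a CCAAT box. Liver cells in the body seldom divide, whereas HepG2 cells do so all the time. In a culture that is not synchronised, as none of the sources used here describes a synchronisation, the level of such a gene averages over cells in all phases, and fewer cells in a phase cannot be told apart from less RNA per cell in that phase.

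The promoters are shown first because the short motifs in them, which the choice of members did not use, were of different frequency in the S phase and the mitotic members. RefSeq (GRCh38.p14) gave the 250 bases before the start of 23 S phase and 25 mitotic members. An E2F-type site (TTTCCCGC, TTTGGCGC, TTTCGCGC or TTTGCCGC, either strand) was present in 11 of the 23 S phase promoters (47.8%) and in 2 of the 25 mitotic promoters (8.0%), against 3.74% of the 15306 promoters of protein-coding genes. A CHR-type element (TTTGAA or TTTAAA, either strand) had the opposite distribution, with 18 of 25 mitotic promoters (72.0%), 3 of 23 S phase promoters (13%) and 17.9% of all promoters. A CHR together with CCAAT was found in 16 mitotic promoters (64.0%) and 2 S phase promoters (8.70%), against 6.87% of all. CCAAT alone was frequent in both, with 15 S phase promoters (65.2%) and 20 mitotic promoters (80.0%) against 34.8%. Among 82 promoters of other genes of the pathway, 13.4% had the E2F-type site, 28.0% the CHR and 20.7% a CHR with CCAAT. Motifs this short also occur by chance, a match is not shown to be a bound site, and no test was run on these shares. Not every member described below had the motif of its list in the 250 bases. *RRM1* and *RRM2* had 0 E2F-type sites and 1 CHR each, and *CDC25C* had 0 CHR and 0 CCAAT elements. The following windows of 60 bases are shown only for members with a match, whose counts are described below. Some of these members have other annotated transcripts that begin within or ahead of the window. The windows end before the RefSeq start. They are given 5′ to 3′ on the strand of the gene, with E2F-type sites in capitals in the S phase members and CHR and CCAAT elements in capitals in the mitotic members, so that a site on the other strand appears as its reverse complement.
*MCM3* (chr6:52284877-52284936, minus strand): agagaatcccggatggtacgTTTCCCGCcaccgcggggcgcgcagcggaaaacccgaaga
*E2F1* (chr20:33686386-33686445, minus strand): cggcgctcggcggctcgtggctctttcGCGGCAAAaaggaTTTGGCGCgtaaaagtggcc
*BUB1B* (chr15:40161009-40161068, plus strand): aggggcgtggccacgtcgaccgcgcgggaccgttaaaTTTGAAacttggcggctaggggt
*PLK1* (chr16:23678829-23678888, plus strand): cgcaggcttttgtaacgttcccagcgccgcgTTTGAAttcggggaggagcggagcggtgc
*CCNB1* (chr5:69167090-69167149, plus strand): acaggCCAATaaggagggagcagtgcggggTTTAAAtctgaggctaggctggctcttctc
*MKI67* (chr10:128126424-128126483, minus strand): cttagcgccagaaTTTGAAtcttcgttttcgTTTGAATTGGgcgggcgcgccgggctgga
In *E2F1*, whose product is itself an E2F factor, a pair of E2F-type sites lies within this short window. In *MCM3*, which encodes a subunit of the MCM helicase, a single site of this kind was found. *BUB1B* and *PLK1*, whose products act in mitosis, show a CHR close to the start. In *CCNB1*, which encodes cyclin B1, CHR and CCAAT both fall in the window, and in *MKI67*, which encodes the proliferation marker Ki-67, a CHR runs into a CCAAT box read on the other strand.

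**Figure D1:**
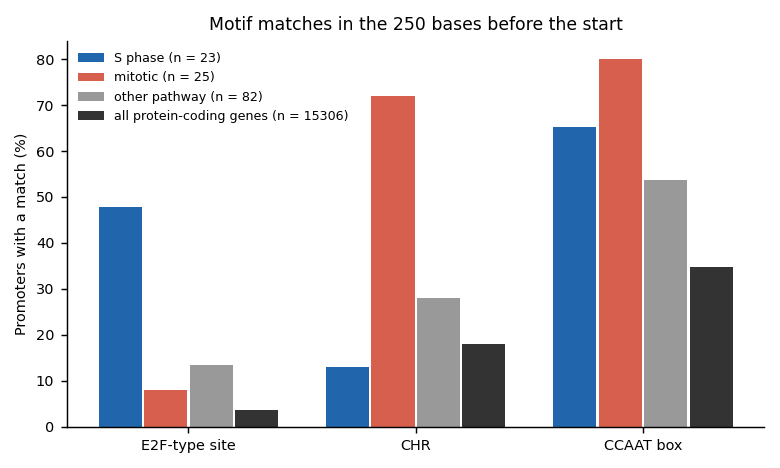
Bars give the percentage of promoters with at least 1 match to each motif in the 250 bases before the start, for S phase members, mitotic members, other genes of the pathway and all protein-coding genes with a promoter sequence. The E2F-type site is most frequent among the S phase members (47.8%) and the CHR among the mitotic members (72.0%).

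The libraries held between 11219750 and 14797573 counts in Input and between 13036423 and 31510601 in RPF, and the lowest count of any member was 43 in an Input library and 47 in an RPF library, both of *CCNE2*. Values are given as CPM, the count in a library scaled to a total of 1000000. Over all genes, siControl RPF replicates 2 and 3 differed by less than the sampling noise (mean chi-square 0.941 per gene, where pure counting noise gives about 1, and 1.06 over protein-coding genes) and were counted as 1 sample in means and SDs, which leaves n = 2 for siControl RPF. siIGF2BP3 RPF replicate 1 stood apart from the rest of its group (mean chi-square 19.8 and 21.5 against replicates 2 and 3, which differed by 1.15), and the counts of calls in RPF are therefore given with and without it. In that library the mitotic members were lower than the mean of replicates 2 and 3 by a median of 0.23 on the log2 scale, with 25 of 32 below, and the S phase members by a median of 0.03, with 15 of 27 below, against a median of 0.06 and 5830 of 10058 below over protein-coding genes of at least 5 CPM. *IGF2BP3* itself fell in siIGF2BP3, from 133, 129 and 127 CPM to 103, 97.9 and 106 CPM in Input (log2 change -0.39 ± 0.05, adjusted p = 1.06e-05) and from 74.6, 78.1 and 77.7 CPM to 21.9, 28.0 and 25.2 CPM in RPF (log2 change -1.59 ± 0.08, adjusted p = 0.000301), where ± is the SE of the fit here and below and both values come from edgeR's quasi-likelihood test with Benjamini-Hochberg adjustment over all genes. The summed hepatocyte markers (*ALB*, *AFP*, *APOA1* and others, 9 genes) were high in every library, at 56770 to 57410 CPM in siControl Input and 52130 to 52230 CPM in siIGF2BP3 Input, and at 89750 to 92190 CPM and 82670 to 92250 CPM in RPF. Of 9 markers of fibroblasts, endothelium, leukocytes and keratinocytes, 6 stayed under 1 CPM in all 12 libraries (*COL1A1*, *COL1A2*, *COL3A1*, *PTPRC*, *KRT5* and *KRT14*). The endothelial markers *PECAM1* and *VWF* and the leukocyte marker *CD68* did not. The highest value of any of the 9 was 27.9 CPM, and their sum lay between 22.8 and 33.9 CPM throughout. Mitochondrial genes took 2.05 to 2.11% of counts in siControl Input and 1.59 to 1.75% in siIGF2BP3 Input, and 1.75 to 1.96% and 2.20 to 2.32% in RPF. The part of these shifts in the results below was not tested.

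As groups, the members were expressed at much the same level in both conditions. The summed S phase members were at 1587 to 1649 CPM in siControl Input and 1540 to 1600 CPM in siIGF2BP3 Input, and the summed mitotic members at 4564 to 4823 CPM and 4770 to 4952 CPM. In RPF the S phase sum was 4272 to 4358 CPM in siControl and 4140 to 4215 CPM in siIGF2BP3, so that the ranges did not meet. The share of RPF counts on protein-coding genes moved the same way without overlap, from 86.0 to 86.2% in siControl to 82.7 to 84.9% in siIGF2BP3, and its part in the lower sum was not tested. In RPF the mitotic sum was 3973 to 4141 CPM and 3640 to 4063 CPM. The order of the sums thus turned between assays, since the S phase sum was 0.334 to 0.348 of the mitotic sum in siControl Input and 1.05 to 1.08 of it in siControl RPF. *TOP2A*, *MKI67*, *CENPF* and *BIRC5* alone, a set picked after their values were seen, made up 53.8 to 55.8% of the mitotic sum in siControl Input and 24.7 to 25.7% in siControl RPF. Without them the S phase sum was still 0.753 to 0.762 of the other 28 genes in siControl Input and 1.40 to 1.45 of them in siControl RPF.

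Per kilobase of exon, the highest siControl Input level among the mitotic members was that of *TOP2A*, the topoisomerase that untangles sister chromatids (208 CPM per kb), and the lowest that of *CDC25C*, a phosphatase that activates CDK1 (6.42 CPM per kb). Among the S phase members the range ran from *PCNA*, the sliding clamp of the fork (141 CPM per kb), down to *CCNE2*, cyclin E2 (0.930 CPM per kb), with a median of 10.4 against 17.5 CPM per kb for the mitotic members. Per kilobase of coding sequence in siControl RPF the order of the medians was reversed, with 71.2 CPM per kb for the S phase and 46.7 CPM per kb for the mitotic members. *PCNA* was the highest of all members on this scale (920.3 CPM per kb), and *BIRC5*, which encodes the passenger protein survivin, the highest mitotic one (229 CPM per kb). Across genes, log2 Input and log2 RPF per kilobase went together with Pearson r = 0.835 in the 27 S phase members and r = 0.480 in the 32 mitotic members, a description only, as all points share the same libraries and genes are not independent replicates.

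Footprints relative to RNA were therefore compared member by member in siControl. The log2 ratio of RPF to Input was fitted over all genes and set so that the median protein-coding gene lies at 0, since the ratio has no absolute scale. Of the 27 S phase members 25 were higher than that median gene (edgeR, adjusted p under 0.05) and 1 was lower, against 43.4% of the 13395 genes tested called higher and 43.3% called lower. Their median was 1.56 on the log2 scale. Of the 32 mitotic members 23 were higher and 7 lower, with a median of 0.52. A call here says only that a gene differs from the median gene, and most genes do. The S phase count lay far from the share of all genes and the mitotic count less so, but no test of the lists was run.

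All 6 MCM helicase subunits were above the median gene, from 1.37 for *MCM3* to 2.81 for *MCM2*, with a median of 2.21. *MCM2* was at 31.7, 29.7 and 30.2 CPM in siControl Input replicates 1, 2 and 3 and at 193, 194 and 193 CPM in the RPF replicates. *MCM4* was at 79.8, 69.3 and 69.4 CPM in Input and 362, 349 and 357 CPM in RPF. *MCM7* was at 83.0, 83.1 and 81.4 CPM in Input and 391, 390.4 and 400.0 CPM in RPF. In each of these genes every RPF value was more than 4 times every Input value, and the log2 ratios were 2.81, 2.44 and 2.41. *CDK4*, the G1 kinase that pairs with D-type cyclins, belonged to the same range, with 33.5, 34.0 and 31.6 CPM in Input, 202, 198 and 202 CPM in RPF and a log2 ratio of 2.75. It shares 43.2% of its exon length with *TSPAN31* on the opposite strand, and the sources used here do not say whether reads were counted by strand. *PCNA* (1.94) and the replication initiator *CDC45* (2.01) were close to the MCM genes, and the other origin and fork genes ranged from 0.17 for *RFC4* to 1.73 for *POLA1*, the catalytic subunit of the primase-polymerase.

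At the low end of the S phase members, *E2F1* was the only one called lower. It had 28.2, 30.1 and 29.5 CPM in siControl Input and 13.7, 13.8 and 13.2 CPM in siControl RPF, with a log2 ratio of -0.96. *CCNE2* was at 3.92, 3.04 and 5.32 CPM in Input and 4.03, 3.38 and 2.95 CPM in RPF, the only S phase member not called (log2 ratio -0.06, adjusted p = 0.753). *E2F1* was lower in every RPF library than in any Input library, while the ranges of *CCNE2* overlapped. *RFC4*, a subunit of the clamp loader, was at 52.0, 47.1 and 51.4 CPM in Input and 51.7, 49.99 and 50.4 CPM in RPF (log2 ratio 0.17, adjusted p = 0.0355). *GINS1*, part of the helicase holoenzyme, was at 87.5, 77.2 and 87.1 CPM and 90.6, 92.9 and 88.7 CPM (log2 ratio 0.26, adjusted p = 0.00102). The direction of *RFC4* turned when a trend on exon length or on coding share was removed (-0.17 and -0.16), and that of *CCNE2* when a trend on GC was removed (0.66). *CCNE2* shares 37.1% of its exon length with the opposite-strand gene *INTS8* (mean 26.4 CPM in siControl Input). *RFC4* and *GINS1* lay just above the median gene in the fit without such offsets, well below the remaining S phase members, of which the lowest was *GMNN*, the licensing inhibitor geminin, at 0.65.

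**Figure D2:**
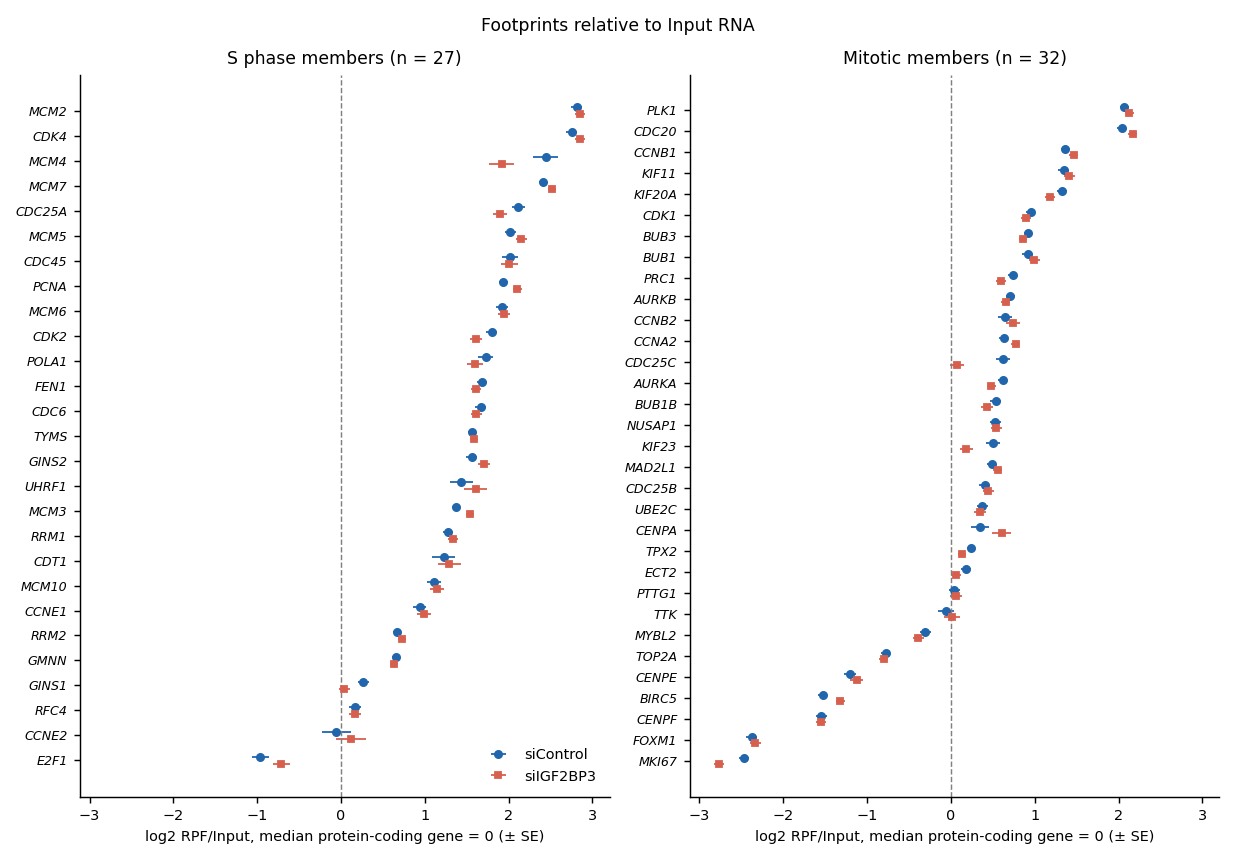
Each row is 1 member, ordered by its siControl value. The horizontal axis is the log2 ratio of RPF to Input relative to the median protein-coding gene (dashed line at 0), circles are siControl, squares siIGF2BP3 and bars the SE of the fit. Of the S phase members *E2F1* lies clearly left of the line, whereas 7 mitotic members were called lower, from *MYBL2* (-0.30) to *MKI67* (-2.47).

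The mitotic members ranged from -2.47 to 2.07. *PLK1*, the Polo-like kinase of mitotic entry, had 84.5, 82.5 and 76.7 CPM in siControl Input and 315, 299 and 307 CPM in siControl RPF, with a log2 ratio of 2.07. *CDC20*, which activates the anaphase-promoting complex, was at 37.8, 36.4 and 34.7 CPM and 137, 130.2 and 136 CPM, with 2.04. These genes reached the range of the MCM subunits. *CCNB1* was at 119.5, 117 and 121 CPM and 284, 272 and 272 CPM (1.36). *KIF11*, the kinesin that separates the spindle poles, was at 62.7, 58.4 and 62.8 CPM and 142, 139.8 and 138 CPM (1.34). Both were well above the middle of the mitotic list. All 9 mitotic cyclins, kinases and phosphatases were called higher (median 0.65), as were all 7 spindle and cytokinesis genes (median 0.53) and 6 of 8 spindle checkpoint and anaphase genes, the exceptions being *TTK* and *PTTG1*, at -0.06 and 0.04. Some of these directions did not hold with a trend removed, since *UBE2C* lay at -0.46 and *PTTG1* at -0.53 with exon length removed, *PTTG1* at -0.24, *ECT2* at -0.07 and *TPX2* at -0.01 with coding share removed, and *TTK* at 0.54 with GC removed. The median of the spindle and cytokinesis genes is the value of *NUSAP1*. *NUSAP1* shares 62.2% of its exon length with another gene model on the same strand, and *PRC1* of the same role 57.6%, so their levels are uncertain.

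The mitotic genes with few footprints for their RNA were of other kinds. Both G2/M transcription factors, 3 of 4 centromere and passenger genes and both genes of chromosome structure and proliferation were called lower. *MKI67* had 538, 491 and 535 CPM in siControl Input and 85.3, 87.6 and 82.4 CPM in siControl RPF, a log2 ratio of -2.47. *FOXM1*, the transcription factor of the G2/M genes, was at 124, 109 and 113 CPM and 19.6, 20.7 and 19.6 CPM, a log2 ratio of -2.38. Input exceeded RPF more than 5-fold in both. *FOXM1* shares 15.9% of its exon length with *ITFG2* on the opposite strand. *CENPF*, a large kinetochore protein, was at 425, 403 and 422 CPM and 129, 131 and 126 CPM (-1.55). *BIRC5* was at 318, 296 and 324 CPM and 97.7, 94.9 and 99.8 CPM (-1.53). Between them and the middle of the list lay the kinesin *CENPE* (-1.21), *TOP2A* (-0.78) and the transcription factor *MYBL2* (-0.30), while *CENPA*, the centromeric histone, was called higher (0.35), although it lay at -0.23 with a trend on exon length removed.

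Ribosome footprints come mainly from coding sequence, whereas RNA reads can come from any part of a transcript, so the make-up of a transcript can enter the ratio. The coding share of the canonical transcript was 61.0% (median) in the S phase members and 68.5% in the mitotic members, against 51.8% over protein-coding genes, and transcript GC was 48.6%, 44.8% and 49.2%. Across the 59 members the log2 ratio had Pearson r of -0.012 with coding share, 0.199 with GC and -0.196 with coding length. Within the S phase members these were 0.311, 0.215 and 0.328, and within the mitotic members -0.009, 0.019 and -0.364. These values are a description with no test. The coding share was as low as 17.8% in *GINS1* (log2 ratio 0.26) and 11.8% in *MAD2L1* (0.49). It was as high as 94.9% in *CENPE* (-1.21), and it was 16.55% in *BIRC5* (-1.53). The part of coding share in these ratios was not tested. Removing a trend of the ratio on exon length left medians of 1.24 and 0.27, with 23 S phase members higher and 1 lower and 20 mitotic members higher and 10 lower. Removing a trend on GC left 1.48 and 0.68, and on coding share 1.40 and 0.32. The sources used here give no protocol for the Input libraries, and a bias of it cannot be told apart from a difference in ribosome load. The ratios were much alike in siIGF2BP3, where they ran from -0.71 to 2.86 in the S phase and from -2.77 to 2.17 in the mitotic members.

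In Input RNA, IGF2BP3 knockdown left most members where they were. Of the 27 S phase members 3 fell and none rose, and of the 32 mitotic members 1 rose and none fell (edgeR, adjusted p under 0.05), beside 5.96% of the 14759 genes tested. At an unadjusted p under 0.05 there were 6 S phase members lower and 0 higher, and 4 mitotic members lower and 2 higher. No share of all genes at that threshold is set beside this or later unadjusted counts, so they describe these genes and not the list. DESeq2 called the same 3 S phase members and none of the mitotic ones, where it called 4.77% of all genes. The 4 calls of 59 are a share close to that of all genes, so they are results about these genes and not about the list. The median log2 fold change was -0.05 over the S phase members, 0.01 over the mitotic members and 0.00 over all genes tested.

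The falls were in nucleotide supply and in the helicase. *RRM1*, the large subunit of ribonucleotide reductase, which makes deoxyribonucleotides (chromosome 11, 4094707 to 4138876, hg38), was at 92.7, 97.2 and 96.6 CPM in siControl and 88.0, 79.8 and 79.6 CPM in siIGF2BP3. The group mean was 95.5 CPM (n = 3, SD 2.43) against 82.5 CPM (n = 3, SD 4.77), and the fall passed the test (log2 change -0.26 ± 0.06, adjusted p = 0.00435). *RRM2*, the small subunit, whose supply limits the enzyme in S phase (chromosome 2, 10120698 to 10131419), was at 165, 165 and 173 CPM and 144, 144 and 147 CPM. The means were 168 CPM (n = 3, SD 4.45) and 145 CPM (n = 3, SD 1.82) (log2 change -0.25 ± 0.05, adjusted p = 0.00108). Both subunits were thus lower in each knockdown library than in any control library. *RRM2* shares 20.2% of its exon length with a gene model on the same strand, ENSG00000284681, and its counts were fractional in all 12 libraries, so its level is uncertain. That model was at 74.6 CPM (mean) in siControl Input and 67.5 CPM in siIGF2BP3 Input. The third enzyme of this group, thymidylate synthase (*TYMS*), was at 81.6, 77.3 and 74.8 CPM and 78.2, 77.8 and 79.0 CPM, and its change was within the spread (log2 change -0.04 ± 0.05, adjusted p = 0.745). *TYMS* shares 39.2% of its exon length with *ENOSF1* on the opposite strand, at 33.1 CPM (mean) in siControl Input and 43.6 CPM in siIGF2BP3 Input. *MCM3* (chromosome 6, 52264009 to 52284881) was at 196, 191 and 194 CPM and 180.4, 168 and 172 CPM. It fell without overlap, with means of 194 CPM (n = 3, SD 2.83) and 174 CPM (n = 3, SD 6.32) (log2 change -0.20 ± 0.05, adjusted p = 0.00672). Leaving out siIGF2BP3 Input replicate 2 moved the adjusted p of *MCM3* to 0.0508, and no other single library ended a call of these 3 genes.

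The other MCM subunits did not pass the test, and 1 of them depended on a library. *MCM4* had 79.8, 69.3 and 69.4 CPM in siControl Input and 118, 71.2 and 123 CPM in siIGF2BP3 Input, where replicate 2 lay in the siControl range and replicates 1 and 3 far above it. Over all 6 libraries this gave log2 change 0.46 ± 0.25, adjusted p = 0.393, and without siIGF2BP3 Input replicate 2 it was 0.68 (adjusted p = 7.35e-08). In RPF it was slightly lower in every siIGF2BP3 library, at 362, 349 and 357 CPM and 336, 339 and 336 CPM, and did not pass the test (log2 change -0.06 ± 0.04, adjusted p = 0.527). The remaining subunits ranged from -0.13 for *MCM7* to 0.00 for *MCM6* on the log2 scale. In the other S phase roles the values farthest from 0 were those of *MCM10*, an origin-firing factor (log2 change -0.13 ± 0.08, adjusted p = 0.376), of *UHRF1*, which keeps DNA methylation at the fork (log2 change -0.15 ± 0.07, adjusted p = 0.207), and of *E2F1* (log2 change -0.20 ± 0.08, adjusted p = 0.137). *E2F1* was at 28.2, 30.1 and 29.5 CPM and 24.4, 28.4 and 25.9 CPM, *UHRF1* at 63.7, 54.4 and 54.9 CPM and 55.5, 55.9 and 49.1 CPM, and *MCM10* at 25.7, 24.7 and 27.7 CPM and 23.3, 24.9 and 25.2 CPM, with overlapping groups in all of them.

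Among the mitotic members the rise was that of *BUB1B*, which encodes the spindle checkpoint protein BUBR1 (chromosome 15, 40161023 to 40221136). It had 54.1, 52.5 and 48.9 CPM in siControl Input and 62.6, 61.8 and 61.6 CPM in siIGF2BP3 Input. The means were 51.9 CPM (n = 3, SD 2.63) and 62.0 CPM (n = 3, SD 0.542) (log2 change 0.21 ± 0.06, adjusted p = 0.0328). The groups did not overlap, yet the call was close to the threshold and was lost with DESeq2 (adjusted p = 0.0654) and on leaving out siControl Input replicate 2 or 3 or any of the siIGF2BP3 Input libraries (adjusted p of 0.0628 to 0.182). It shares 10.2% of its exon length with *BUB1B-PAK6*, a readthrough model on the same strand. *CDC25C* was at 20.2, 21.8 and 22.2 CPM and 24.2, 26.5 and 27.9 CPM, again without overlap, and did not pass the test (log2 change 0.24 ± 0.09, adjusted p = 0.0920). *TPX2*, which activates Aurora A on the spindle, was at 193, 196 and 199 CPM and 184, 188 and 184 CPM (log2 change -0.13 ± 0.04, adjusted p = 0.0838). *MKI67* was at 538, 491 and 535 CPM and 586, 545 and 561 CPM (log2 change 0.07 ± 0.05, adjusted p = 0.444). In siIGF2BP3 all libraries were below those of siControl for *TPX2* and above them for *MKI67*, yet neither passed the test. *FOXM1* (log2 change -0.08 ± 0.05, adjusted p = 0.452) was at 124, 109 and 113 CPM and 115, 114 and 109 CPM, and *CENPA* (log2 change -0.12 ± 0.11, adjusted p = 0.6004) at 20.7, 16.8 and 15.8 CPM and 17.9, 15.1 and 18.1 CPM. Both overlapped between conditions.

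**Figure D3:**
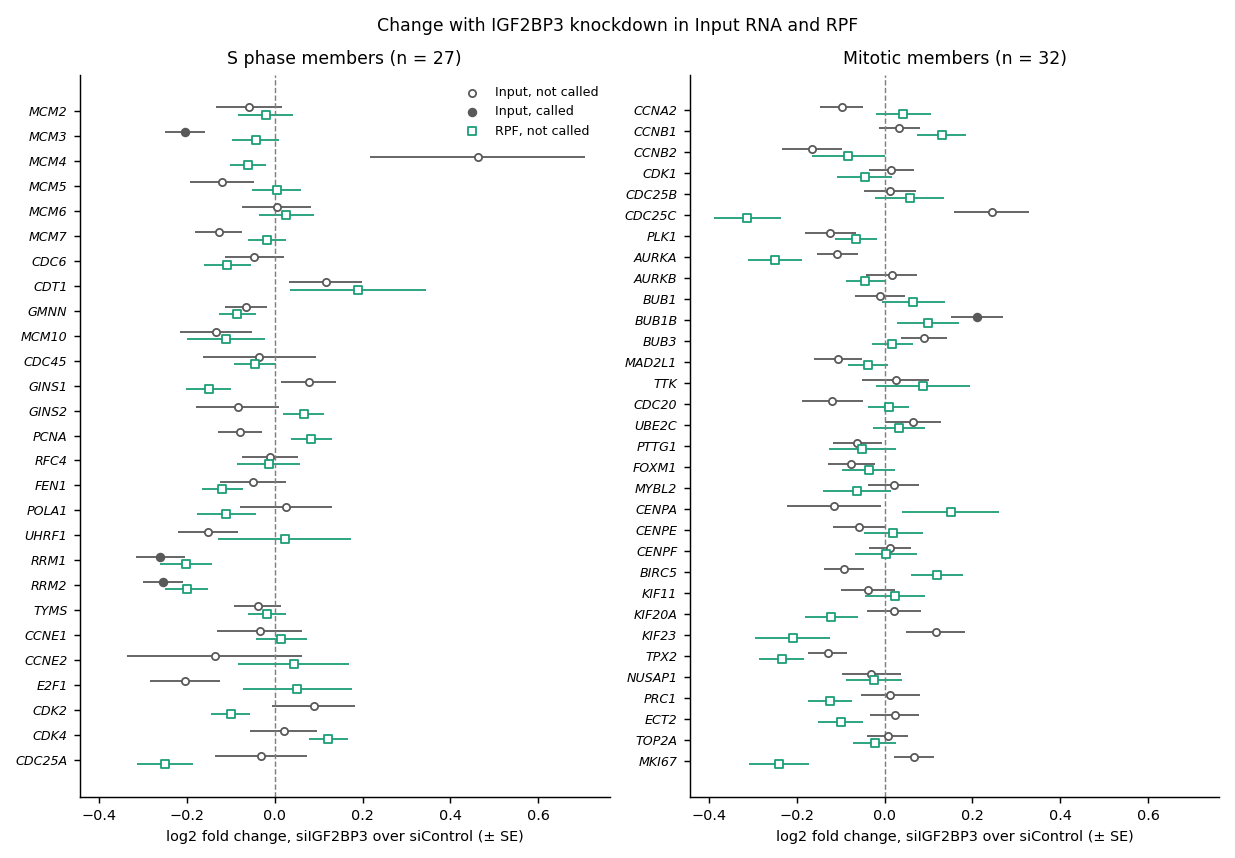
Each row is 1 member, and the horizontal axis is the log2 fold change of siIGF2BP3 over siControl with its SE, circles for Input and squares for RPF. Filled symbols passed the test (adjusted p under 0.05), which are *MCM3*, *RRM1*, *RRM2* and *BUB1B* in Input and none in RPF. *MCM4*, whose siIGF2BP3 Input libraries were at 71.2 to 123 CPM, has a wide Input bar.

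In RPF none of the 59 members passed the test (edgeR, adjusted p under 0.05), beside 1.66% of the 20192 genes tested. At an unadjusted p under 0.05, 5 S phase members were lower and 1 was higher, and 6 mitotic members were lower and 0 higher. Again no share of all genes is set beside these counts, and no test of the list was run. DESeq2 called *RRM2*, *CDC25C*, *AURKA* and *TPX2* lower and none higher, where it called 3.34% of all genes. The median log2 fold change was -0.02 in the S phase and -0.03 in the mitotic members, against 0.01 over all genes tested.

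The 8 members with the lowest adjusted p were all below 0, the last of them *GINS1* (log2 change -0.15 ± 0.05, adjusted p = 0.208). The next was *CDK4*, which was above 0 (log2 change 0.12 ± 0.04, adjusted p = 0.228). None of them passed the test, and the direction of all genes at such ranks is not set beside this order. It describes these genes and not the list, and the other genes of the pathway, given below, leaned the same way. *TPX2* was at 214, 203 and 208 CPM in siControl RPF and 161, 177 and 188 CPM in siIGF2BP3 RPF (log2 change -0.23 ± 0.05, adjusted p = 0.0742). *CDC25C* was at 31.3, 28.6 and 29.3 CPM and 20.6, 26.0 and 24.2 CPM (log2 change -0.31 ± 0.08, adjusted p = 0.0931). *RRM1* was at 208, 210.4 and 208 CPM and 159.5, 188 and 191 CPM (log2 change -0.20 ± 0.06, adjusted p = 0.147). In each of them siIGF2BP3 replicate 1 was the lowest library, and no siIGF2BP3 library reached the siControl range. *CDC25A*, the phosphatase that frees CDK2 at the start of S phase, was at 62.6, 57.0 and 59.7 CPM and 52.2, 48.1 and 48.8 CPM (log2 change -0.25 ± 0.06, adjusted p = 0.107), and *RRM2* at 251, 233 and 238 CPM and 209, 202 and 209 CPM (log2 change -0.20 ± 0.05, adjusted p = 0.0939). The flap nuclease *FEN1*, which ranked after *CDK4*, was at 90.3, 87.1 and 87.9 CPM and 74.7, 83.7 and 83.1 CPM. Its log2 change was -0.12 ± 0.05 (adjusted p = 0.270), or -0.09 without siIGF2BP3 replicate 1 (adjusted p = 0.0556). These 3 did not overlap between conditions either. *MKI67* was at 85.3, 87.6 and 82.4 CPM and 62.3, 76.1 and 75.1 CPM (log2 change -0.24 ± 0.07, adjusted p = 0.133), below siControl in RPF while it was above siControl in Input. *AURKA*, the Aurora A kinase of the spindle poles, was at 193, 179 and 189 CPM and 139, 161 and 166 CPM (log2 change -0.25 ± 0.06, adjusted p = 0.0949).

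In further members siIGF2BP3 RPF replicate 1 and its replicates 2 and 3 differed. *CDT1* was at 53.1, 51.7 and 54.3 CPM in siControl RPF and 75.7, 51.6 and 52.6 CPM in siIGF2BP3 RPF, its replicate 1 far above the others (log2 change 0.19 ± 0.16, adjusted p = 0.623), and without that library its log2 fold change was -0.03. *UHRF1* was also highest in replicate 1, with 143, 137 and 142 CPM and 177, 120.4 and 126 CPM, and went from 0.02 to -0.19 on the log2 scale without it, where it was called lower (adjusted p = 0.00144). *BUB1B* was at 69.4, 67.9 and 66.0 CPM and 61.9, 75.3 and 77.7 CPM (log2 change 0.10 ± 0.07, adjusted p = 0.571), with replicate 1 the lowest and replicates 2 and 3 the highest of all 6, and without replicate 1 it was called higher (0.17, adjusted p = 0.00465). *CENPA* was at 21.3, 19.7 and 20.0 CPM and 26.1, 21.3 and 20.2 CPM (log2 change 0.15 ± 0.11, adjusted p = 0.578), and without replicate 1 its change was 0.02. *MYBL2* was at 45.8, 41.5 and 41.4 CPM and 44.1, 39.1 and 39.1 CPM (log2 change -0.06 ± 0.08, adjusted p = 0.772), with replicates 2 and 3 below the siControl range, and without replicate 1 its change was -0.14 (adjusted p = 0.0520).

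With siIGF2BP3 RPF replicate 1 left out many more genes passed the test, with 16.5% of 20615 genes called. Of the S phase members 1 was then called higher and 8 lower, and of the mitotic members 5 higher and 6 lower, which is 20 of 59. All these changes were small. The siIGF2BP3 group then held only replicates 2 and 3, which differed by little more than counting noise (mean chi-square 1.15 per gene). The adjusted p-values of this fit therefore rest on a narrow spread, which may be technical. The S phase members called lower were *CDC25A* (-0.31), *RRM2* (-0.23), *UHRF1* (-0.19), *RRM1* (-0.14), *GINS1* (-0.11), *GMNN* (-0.09), *MCM2* (-0.09) and *MCM4* (-0.08 on the log2 scale), and *CDK4* was called higher (0.10). The mitotic members called lower were *CDC25C* (-0.26), *TPX2* (-0.20), *AURKA* (-0.19), *MKI67* (-0.17), *PRC1* (-0.14) and *PLK1* (-0.10). Those called higher were *TTK* (0.19), *CCNB1* (0.18), *BUB1B* (0.17), *BUB1* (0.14) and *KIF11* (0.10), among which *TTK*, *BUB1B* and *BUB1* encode proteins of the spindle checkpoint. Of the same role *MAD2L1* was at -0.05, *CDC20* at -0.02, *BUB3* and *PTTG1* at 0.03 and *UBE2C* at 0.09, without passing the test. With siControl RPF replicates 2 and 3 also merged into 1, 0 S phase members were called higher and 4 lower, and 3 mitotic members higher and 6 lower, with the calls of *CDK4*, *GINS1*, *GMNN*, *MCM2*, *MCM4*, *TTK* and *KIF11* lost (adjusted p of 0.0502 to 0.104). The 16.5% above belongs to the fit without this merging, and no share of all genes is given for the merged fit. Which of these settings is nearer to the truth cannot be told from 3 libraries. Whether a member is called in RPF depends on 1 library. *PRC1* shares 57.6% of its exon length with another gene model on the same strand, so its level is uncertain.

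**Figure D4:**
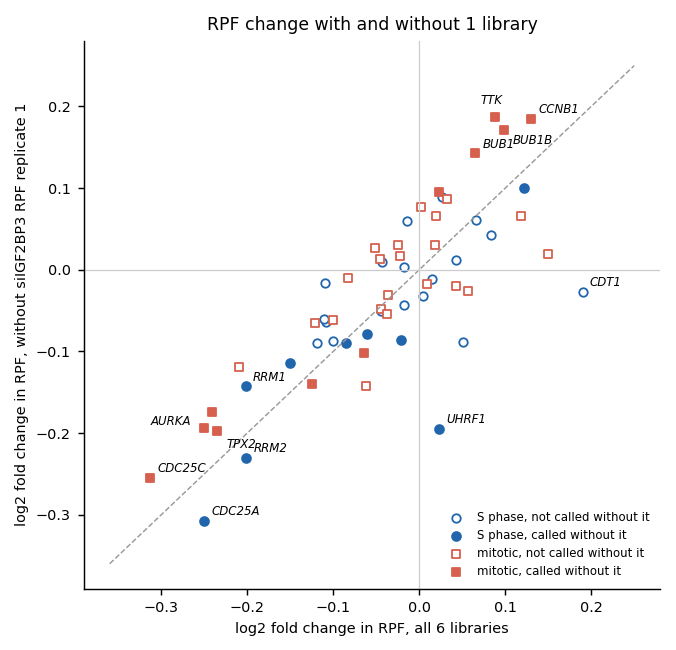
Each point is 1 member, with its log2 fold change in RPF over all 6 libraries on the horizontal axis and without siIGF2BP3 RPF replicate 1 on the vertical axis, circles for S phase and squares for mitotic members. Filled points were called without that library. *CDT1* and *UHRF1* lie far below the dashed line of equal values, and *TTK*, *BUB1*, *BUB1B* and *CCNB1* above it.

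The change in translational efficiency (TE), the difference between the RPF and the Input fold change tested as an interaction over all 12 libraries, was called in 1 of 59 members, beside 2.17% of the 13395 genes tested. That member was *CDC25C* (chromosome 5, 138285265 to 138338355), whose Input was higher and whose RPF was lower in siIGF2BP3, in every library of each. Its mean went from 21.4 CPM (n = 3, SD 1.06) to 26.2 CPM (n = 3, SD 1.85) in Input and from 30.1 CPM (n = 2, SD 1.64) to 23.6 CPM (n = 3, SD 2.75) in RPF (TE change -0.55 ± 0.12, adjusted p = 0.0161). It was called with DESeq2 too (-0.55, adjusted p = 0.0228), where 1.94% of all genes were called, but not on leaving out siControl Input replicate 1, siControl RPF replicate 1 or siIGF2BP3 Input replicate 3 (adjusted p of 0.0537 to 0.0624), nor with limma on log2 ratios (adjusted p = 0.189). The edgeR test kept siControl RPF replicates 2 and 3 apart, and with both merged into 1 *CDC25C* was called too (-0.56, adjusted p = 0.0380). *CDC25C* shares 8.78% of its exon length with *FAM53C* on the opposite strand. The next value was that of *MKI67*, at -0.30 ± 0.08 (adjusted p = 0.0672), which DESeq2 called (adjusted p = 0.0472). No S phase member was called, and at an unadjusted p under 0.05 there were 2 higher and 2 lower, beside 1 higher and 3 lower among the mitotic members. *MCM4* had the S phase value farthest from 0 (log2 change -0.52 ± 0.21, adjusted p = 0.236), and without siIGF2BP3 Input replicate 2 it was -0.74 (adjusted p = 0.000168). Without siIGF2BP3 RPF replicate 1, 10.0% of 13479 genes were called, and among the members *MCM3* (0.22) and *CCNB1* (0.16) were higher and *CDC25C* (-0.49) and *MKI67* (-0.23) lower. That fit too rests on siIGF2BP3 RPF replicates 2 and 3 alone, with their narrow spread.

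**Figure D5:**
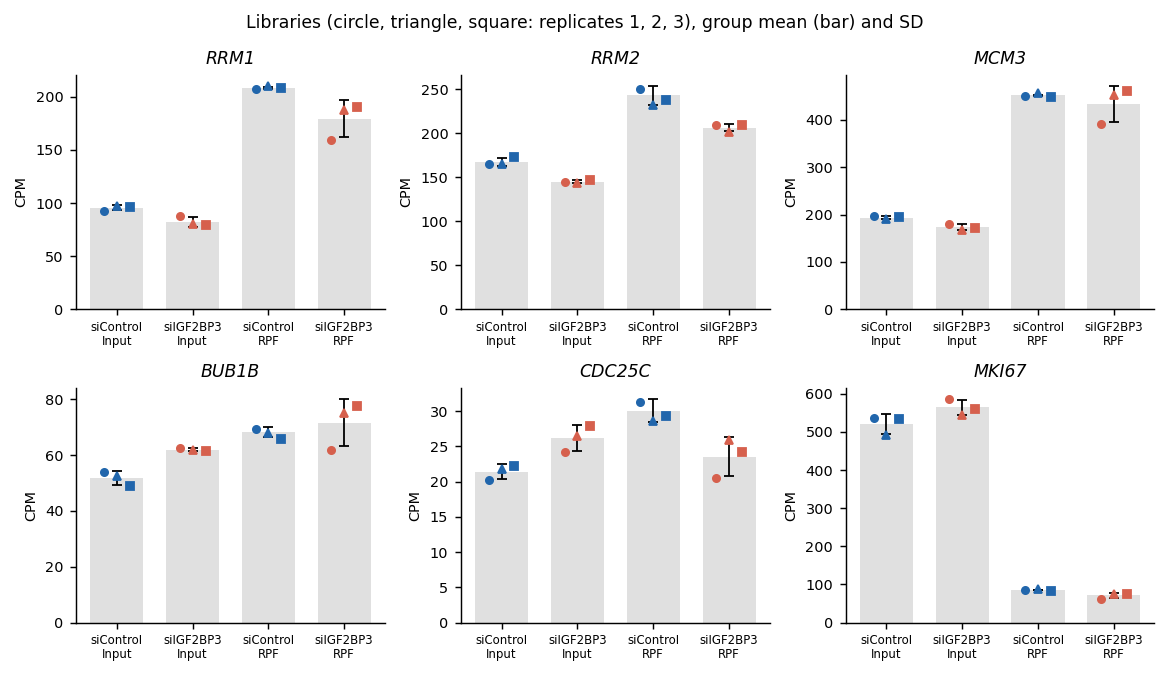
CPM of the members called in Input or TE and of *MKI67* in all 12 libraries, with 1 symbol per library (circle, triangle and square for replicates 1, 2 and 3), bars for the group mean and error bars for the SD (n = 3, or 2 for siControl RPF). *RRM1*, *RRM2* and *MCM3* are lower and *BUB1B* higher in siIGF2BP3 Input without overlap, and *CDC25C* is higher in Input and lower in RPF.

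Other genes of the pathway were examined in the same fits. Of 94 further regulators of G1, replication and mitosis, 93 were tested in Input, where 1 rose and 1 fell, beside 5.96% of all genes called. *CENPU*, a centromere protein, rose (log2 change 0.24 ± 0.06, adjusted p = 0.0208) and the kinesin *KIF4A* fell (log2 change -0.28 ± 0.07, adjusted p = 0.0187). DESeq2 called both, and each call was lost on leaving out certain Input libraries, siControl replicate 1 or 3 or siIGF2BP3 replicate 1 for *CENPU* (adjusted p of 0.0533 to 0.104) and siControl replicate 2 or 3 or siIGF2BP3 replicate 2 or 3 for *KIF4A* (0.0554 to 0.0819). In RPF 4 of 92 fell and none rose (edgeR), beside 1.66% of all genes called, and DESeq2 called *CDK6* and *WEE1* lower besides these 4. At an unadjusted p under 0.05 there were 6 higher and 17 lower, and without siIGF2BP3 RPF replicate 1, 10 were called higher and 21 lower. *E2F3*, a G1/S transcription factor, was at 14.6, 15.1 and 14.0 CPM in siControl and 9.59, 9.79 and 10.5 CPM in siIGF2BP3 (log2 change -0.53 ± 0.07, adjusted p = 0.0146). *E2F7*, a repressor of the same family, was at 17.2, 16.9 and 15.1 CPM and 8.98, 12.02 and 11.7 CPM (log2 change -0.56 ± 0.10, adjusted p = 0.0438). Neither gene overlapped between conditions, and both changes exceeded those of all 59 members in RPF. The others were the kinesin *KIF2C* (log2 change -0.35 ± 0.05, adjusted p = 0.0176) and *RPA1*, which coats single-stranded DNA at the fork (log2 change -0.27 ± 0.04, adjusted p = 0.0316). These 4 calls stood without siIGF2BP3 RPF replicate 1, and each was lost on leaving out any of the other 5 RPF libraries (adjusted p of 0.0590 to 0.239) or with siControl RPF replicates 2 and 3 merged into 1 (0.0902 to 0.170). In TE 2 of 92 fell, beside 2.17% of all genes called, *E2F3* (log2 change -0.46 ± 0.11, adjusted p = 0.0311) and *WEE1*, the kinase that holds back CDK1 (log2 change -0.40 ± 0.09, adjusted p = 0.0225). DESeq2 called *WEE1* (adjusted p = 0.0159) and not *E2F3* (0.0672). Both were lost with siControl RPF replicates 2 and 3 merged (adjusted p of 0.0592 and 0.0682), with limma on log2 ratios (0.246 and 0.253) and on leaving out most of the libraries in turn, siIGF2BP3 RPF replicate 1 not among them (0.0520 to 0.101). In siControl 53 of 92 were above and 30 below the median gene in RPF/Input (median 0.59), with 24 of 33 replication genes but 20 of 40 mitotic genes above it.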

How the data were processed

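RNA (Input) and ribosome-protected fragments (RPF) were sequenced from HepG2 cells, 3 libraries each of siControl and siIGF2BP3. After trimming (Cutadapt) and alignment to hg38 (STAR), the authors assigned reads to genes with featureCounts, and the deposited values are estimated counts, many of them not whole numbers. Versions, strand and multimapping options are not given in the sources used here. Counts were rounded (totals changed by at most 0.0445%) and named through GENCODE release 44 (58252 identifiers, 99.2%).

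Groups were compared with edgeR 4.0.16 (R 4.3.3; quasi-likelihood test, TMM factors, default filter on low counts, Benjamini-Hochberg adjustment over all genes, threshold 0.05), with TMM within each assay for TE (the interaction of assay and siRNA) and for RPF/Input. The scripts were tested on simulated data. Alternatives were DESeq2 1.42.0, limma 3.58.1 (pseudocount 0.5 CPM), other scaling and filters, exon length, GC and coding-share offsets, a replicate block, summed siControl RPF replicates 2 and 3, and each library left out. The sources used here mention no molecular identifiers and no removal of duplicates for these libraries, so totals may overstate independent molecules. Replicate numbers were not taken to pair libraries in the main tests. They were used in the replicate block and in limma on log2 ratios, which paired same-numbered Input and RPF libraries.

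Members and lists were chosen with earlier results of these data known. Per-library values are given for members called in any comparison (at most 12 in each), for the member of each role that changed most in Input and in RPF, for the 4 highest and 4 lowest RPF/Input ratios of the S phase and of the mitotic members, and, of the other pathway genes, for at most 6 called genes in each comparison. *PCNA*, *TYMS*, *AURKA* and other members outside these rules were named after their values were seen.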

Additional observations from a re-analysis of the deposited data

How the results depend on the processing

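Counts of calls depended on the setting as follows. They show how far the calls of members moved, and no share of all genes is set beside most of them in this section. In Input, the GC offset gave 5 S phase and 2 mitotic members lower, DESeq2 gave 0 mitotic members higher, and the length offset gave 0 mitotic members higher and 1 lower. In RPF, DESeq2 gave 1 S phase and 3 mitotic members lower, and the GC offset 3 and 4. With siControl RPF replicates 2 and 3 summed and siIGF2BP3 RPF replicate 1 left out, RPF had 4 S phase members lower, 3 mitotic members higher and 6 lower, and TE had 1 S phase member higher and 2 mitotic members lower. In TE, the GC offset gave 1 mitotic member higher and 3 lower, DESeq2 and a mean of at least 5 CPM each gave 2 lower, and limma gave 0 lower. The GC offset, the coding-share offset and the summed fit without siIGF2BP3 RPF replicate 1 were added after seeing the data.

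Leaving out 1 library at a time gave, in Input, 0 to 1 S phase members higher, 0 to 1 mitotic members higher and 0 to 1 lower. In RPF it gave 0 to 1 S phase members higher and 0 to 8 lower, and 0 to 5 mitotic members higher and 0 to 6 lower. In TE it gave 0 to 1 S phase members higher, 0 to 1 lower, 0 to 1 mitotic members higher and 0 to 2 lower. Most of the range in RPF came from siIGF2BP3 RPF replicate 1, without which 16.5% of all genes tested were called. *CDT1* in RPF changed sign, at -0.027 without siIGF2BP3 RPF replicate 1 and -0.025 with siControl replicates 2 and 3 summed as well, against values of up to 0.30 without another library.

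With the replicate number as a block, Input had 3 S phase members lower and 1 mitotic member higher, RPF none (0), TE 1 mitotic member lower, and RPF/Input 23 S phase members higher and 1 lower and 22 mitotic members higher and 7 lower. The block ended the calls of *E2F7* (adjusted p = 0.0562) and *RPA1* (0.0741) in RPF and of *E2F3* in TE (0.0630) and, in these knockdown comparisons, of no named member. Same-numbered libraries deviated from their group means with correlations of -0.032 to 0.039 in Input and 0.039 to 0.173 in RPF. Between same-numbered Input and RPF, which limma paired, the correlations were -0.011 to 0.023 in siControl and -0.228 to -0.12 in siIGF2BP3. These limits remain with 3 libraries a group, of which siControl RPF replicates 2 and 3 may be close to 1. The lowest counts were those of *CCNE2*, whose changes were not detectable at this depth.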
